A study of Homo sapiens with 34 samples.

Results

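The m6Am peaks listed for hypoxia against untreated HEK293T cells, a human embryonic kidney cell line, were described here by their genes, their spans and the sequence at their starts. The list held 390 lines and 385 distinct spans, and every distinct span was counted once, among 2050 distinct spans in the 3 m6Am lists of the series. A span is the stretch of hg19 from the first to the last base of a peak, introns included. The hypoxic cells had been kept at 1% oxygen for 24 h and gave 7 libraries, namely 2 "FTO (−)" m6A-IP, 2 "FTO (+)" m6A-IP, 2 m7G-IP and 1 input. The 7 untreated libraries had the same makeup, and the untreated cells served both stress lists. The HEK293T reference list of 1652 spans came from a separate set of HEK293T libraries, with 2 of each of the 3 immunoprecipitations and 2 inputs. A row of the hypoxia list is a peak that passed the authors' test of hypoxic against untreated cells, and the direction and size of that change were not used here. The lists carry positions and gene names with no value per library, so no replicate error could be given. Intervals below are 95% intervals for counting error over spans, by Wilson's method for a share and Newcombe's method for a difference, and no p-value was computed.

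N6,2′-O-dimethyladenosine, or m6Am, sits next to the m7G cap of an mRNA whose first transcribed base is A. The methyl group at N6 is written by PCIF1 and can be removed by FTO, and demethylation by FTO in the test tube separates m6Am from m6A in the 5′-UTR, because only the cap-adjacent mark is lost under the conditions used. Low oxygen stabilises the alpha subunits of hypoxia-inducible factor (HIF), which bind the hypoxia response element core in promoters and raise genes for glycolysis, glucose uptake and adaptation to low oxygen. Low oxygen also slows protein folding in the endoplasmic reticulum (ER), and the unfolded protein response and the integrated stress response then raise factors such as ATF3 and CHOP.

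The sequence at the annotated start is what a cap-adjacent A would be read from, so the first transcribed base was taken for each span at the Gencode transcription start site (TSS) nearest to the 5′ end of the span. The 30-base windows below were read from GRCh37, the build called hg19 in the methods. They show 8 genes of the stress and pathway lists whose first base is A in the BCA context, where B is C, G or T and A is the start. Capitals mark the start and the 2 bases before it.
HK2, hexokinase 2, chr2:75061239-75061268, plus strand: gcccctcaataagCCAcattgttgcatgaa
BHLHE40, a transcriptional repressor, chr3:5021107-5021136, plus strand: cccgccccacttcTCAttcacttggctcgc
ATF3, a stress-induced transcription factor, chr1:212781997-212782026, plus strand: gaagctattaataGCAttacgtcagcctgg
MANF, a secreted ER stress protein, chr3:51422707-51422736, plus strand: cggcgggtgcggtTCAgtcggtcggcggcg
SLC38A2, an amino acid transporter, chr12:46766542-46766571, minus strand: tcgcagggctgctCCAcagccgcgcgacgc
HES1, a Notch target, chr3:193853922-193853951, plus strand: cagggcctagggaTCAcacaggatccggag
TEAD1, the DNA-binding partner of YAP1, chr11:12695953-12695982, plus strand: ttcattcctgtccTCAttccgaacattctt
DHCR7, the last enzyme of cholesterol synthesis, chr11:71159467-71159496, minus strand: ccgcctccgattgGCAggcaatcgctgaca

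These 8 starts share BCA and otherwise differ around the start. Over all 374 hypoxia spans whose name matched a Gencode gene, the nearest start began with A in 160 (42.8%, 37.9 to 47.8), with G in 146, with C in 52 and with T in 16. The A lay in BCA in 89 spans (23.8%), as CCA in 36, GCA in 28 and TCA in 25. Among the HEK293T spans without a hypoxia span the first base was A in 617 of 1375 (44.9%) and the interval of the difference, -7.67 to 3.60 percentage points, includes 0. At the canonical Gencode start of the same genes, A came first in 218 of 371 (58.8%, 53.7 to 63.7) and BCA in 149 (40.2%). Canonical starts of all 19819 protein-coding genes began with A in 50.7%. The nearest starts gave a lower share of A than the canonical starts of all genes, but these are unlike starts. At canonical starts for both, the share of the hypoxia spans was higher by 8.07 percentage points. The HEK293T spans without a hypoxia span had A at 59.0% of canonical starts. A start in the annotation is not a measured cap, and a BCA lay within 10 bases of the nearest start in 246 of the 374 (65.8%).

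The hypoxia spans overlapped the HEK293T reference list in 220 of 385 cases (57.1%, 52.2 to 62.0), counting 1 shared base as an overlap, and 165 spans had no HEK293T counterpart. Seen from the reference, 223 of 1652 HEK293T spans overlapped a hypoxia span, a share of 13.5%. Requiring that at least 50% of both spans be shared left 178 overlapping spans, and 43 spans had the same start and end in both lists. Among the 220, the median overlap was 93.3% of the union of both spans. Only 7 of the 220 met a HEK293T span of another name alone. Of the 165 without an overlap, 2 carried a name that the HEK293T list also held. VPS45, which works in membrane fusion at endosomes, had a hypoxia span at chr1:150039725-150040713, beginning 166 bp after the HEK293T span of that gene ended. ALG3, a mannosyltransferase of N-glycan assembly, had its spans 315 bp apart. Absence from the HEK293T list means that no m6Am span was listed there and does not measure the level of m6Am at that gene in untreated cells.

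Where both lists had a span, the 5′ ends coincided far more often than the 3′ ends. Of 212 overlapping pairs with a known strand, 158 (74.5%) had the identical 5′ end and 57 (26.9%) the identical 3′ end. The authors ran exomePeak, one of their peak callers, with RefSeq annotation, and 59 of these 212 hypoxia spans began exactly on an annotated Gencode start. How far the annotation and the windows of the peak caller set the shared 5′ ends was not tested. The 5′ end lay further downstream in hypoxia in 36 pairs and further upstream in 18. The 3′ end lay further downstream in 75 pairs and further upstream in 80. BHLHE40, STC2, SLC38A2, DHCR7, ALG2 and ATG3 had the same span to the base. HK2 began at the same base and ended 30 bp earlier in hypoxia (360 bp long), whereas HES1 and TEAD1 ended 30 bp later. ENO2 ended 529 bp later, and IGF1R, the receptor for insulin-like growth factor 1, ended 150 bp earlier.

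**Figure D1:**
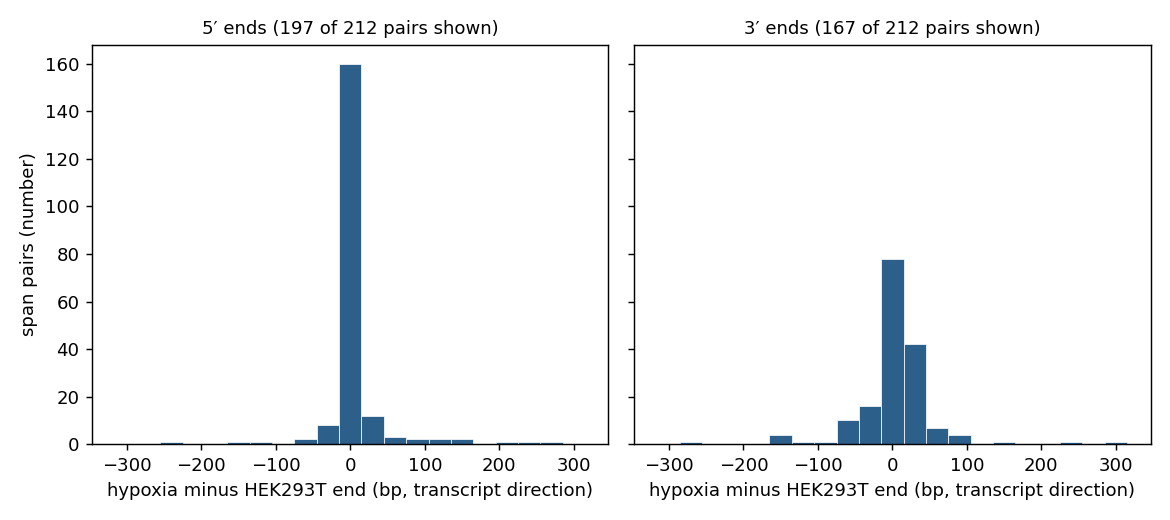
Histograms of the difference between the hypoxia and the HEK293T end of overlapping spans, in bp along the transcript in 30-bp bins, with the number of pairs on the vertical axis. The 5′ ends on the left pile up at 0 in 158 of 212 pairs, whereas the 3′ ends on the right spread on both sides, and 15 and 45 pairs lie beyond 315 bp.

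Part of the lengths and end differences fell on multiples of 30 bp. Of the 77 hypoxia spans that lay inside 1 annotated exon, 68 (88.3%) had a length within 1 bp of a multiple of 30, and the HEK293T spans without a hypoxia span had 82.7%. Over all 365 hypoxia spans with exonic bases, the exonic length did so in 110 (30.1%). Of end differences of 29 bp or more, 27 of 51 at the 5′ end and 61 of 126 at the 3′ end lay within 1 bp of a multiple of 30. Where the 3′ ends differed, 33 pairs lay 1 step of 29 to 31 bp further downstream in hypoxia and 8 lay 1 step further upstream. Differences of 1 step are at the resolution of the peak windows and were not read as shifts of the mark.

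The hypoxia spans were 119 to 187089 bp long with a median of 1290 bp (95% interval of the median 756 to 1788). The median was 920.5 bp for the 220 overlapping spans (448 to 1592), 1587 bp for the 165 others (989 to 3169) and 1246 bp for the HEK293T spans without a hypoxia span. The intervals of the first 2 overlapped. Span length includes introns, and the annotated exonic part of the named gene had a median of 320 bp (299 to 360) inside the hypoxia spans and 346 bp inside the HEK293T spans without one. The shortest spans named HIST1H4J (119 bp), a histone H4 gene, LRRC34 (121 bp), IQSEC1 (121 bp), HIST2H2BE (149 bp) and ALDH3A2 (150 bp), an aldehyde dehydrogenase for fatty aldehydes. The longest span, of 187089 bp, is given by its length alone, and other long ones named RNF103 (158932 bp), an ER ubiquitin ligase, DSE (145218 bp), RFX3 (130474 bp), LOC102723709 (116024 bp) and BTRC (107974 bp), the substrate receptor of an SCF ubiquitin ligase. The RNF103 span overlapped the CHMP3 span over 34172 of the 34174 bp of the latter. MINOS1, RPS14P3 and NBL1 shared 1 stretch of chromosome 1. Merging overlaps left 382 stretches. Histone genes and the pseudogenes RPS14P3 and RPL23AP7 have near-identical copies, and their names are uncertain for that reason.

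**Figure D2:**
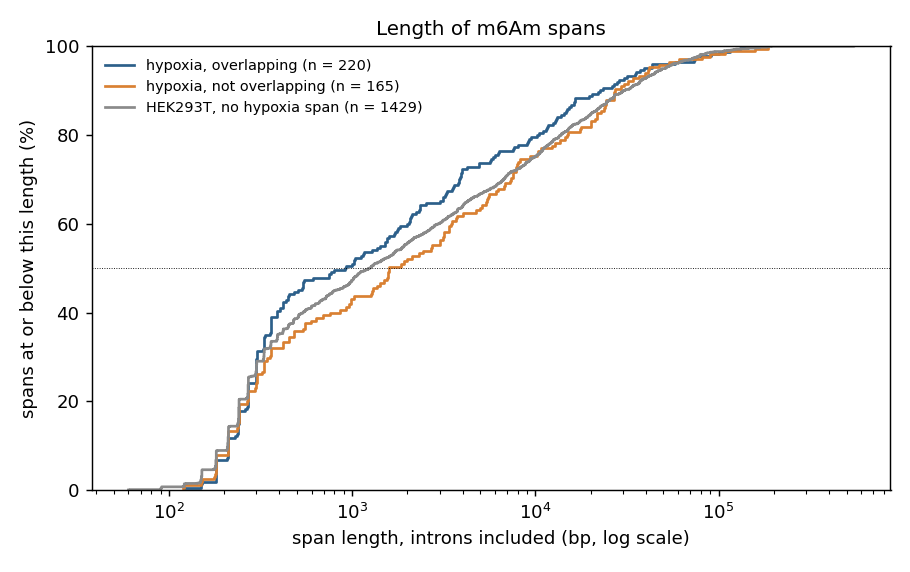
Cumulative share of spans (vertical axis, %) against span length in bp on a log axis, for hypoxia spans that overlapped a HEK293T span (n = 220), hypoxia spans that did not (n = 165) and HEK293T spans without a hypoxia span (n = 1429). The dotted line marks the median, crossed at 920.5, 1587 and 1246 bp.

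The spans lay at the starts of genes, but the authors had taken 5′-UTR peaks that overlapped an m7G-IP peak. This place was therefore largely set by their selection, and the shares below are a description. A TSS of the named gene fell inside 344 of the 374 matched spans (92.0%, 88.8 to 94.3), against 92.5% of the HEK293T spans without a hypoxia span. The share was 194 of 212 for spans overlapping the HEK293T list and 150 of 162 for the others. The 5′ end lay within 100 bp of an annotated start in 297 spans (79.4%) and exactly on one in 104. The median distance to the nearest start was 17 bp. The span reached coding sequence in 226 of 360 protein-coding genes (62.8%). Among the 30 spans with no start inside, 8 began within 100 bp of one and 13 lay over 1000 bp away. One of the latter, SLC17A5, a lysosomal sialic acid exporter, was listed at chr6:74303759-74304206, 49980 bp downstream of the nearest start and within an annotated exon. Its HEK293T span lay inside the same stretch at 74303908-74304147.

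**Figure D3:**
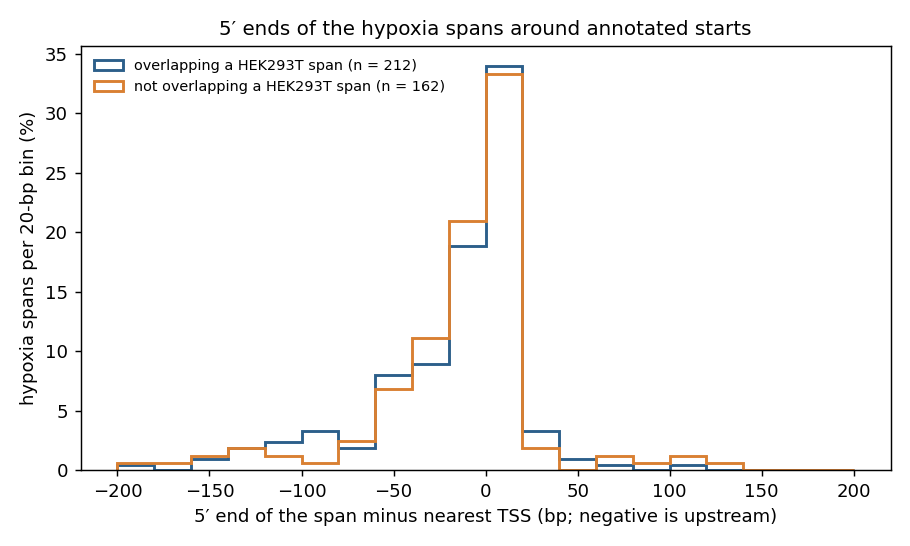
Position of the 5′ end of hypoxia spans relative to the nearest annotated start, in bp with upstream negative, as the percent of spans per 20-bp bin. Both outlines, for the 212 spans overlapping a HEK293T span and the 162 others, rise to 1 peak at the start, and 182 and 140 spans fall inside the 200 bp shown on each side.

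Some spans sat at a start other than the canonical one. The 5′ end was over 1000 bp from the canonical start in 47 of 371 spans, and 17 of these (4.58% of 371, 2.88 to 7.22) began within 100 bp of another annotated start of the same gene. The HEK293T spans without a hypoxia span had 4.63%. The ROBO1 span, in a gene for an axon guidance receptor, began exactly on a start 748539 bp downstream of the canonical one. The CALD1 span, for the actin-binding protein caldesmon, began 111766 bp downstream and the IQSEC1 span, for an exchange factor of ARF GTPases, 105731 bp downstream. ROBO1 had the same span in the HEK293T list, CALD1 overlapped one and IQSEC1 did not.

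The names were sorted by function, in 16 classes set after the names had been seen. Transcription factors and cofactors formed the largest class with 49 of 385 spans (12.7%). The next largest, with 45 spans (11.7%), held genes of other or unassigned function. Vesicle and membrane traffic had 34, chromatin and histones with 32, RNA processing with 29 and signalling with 29. Cell division and DNA repair held 24 spans and ER folding, glycosylation and degradation 23. Of the noncoding RNAs and pseudogenes, 16 of 20 (80.0%, 58.4 to 91.9) overlapped a HEK293T span. Carbohydrate, nucleotide and amino acid metabolism had 6 overlaps among 15 spans (interval 19.8% to 64.3%), and translation had 6 among 15 as well. Transcription factors overlapped in 23 of 49 (46.9%, 33.7 to 60.6) and cell division in 17 of 24 (70.8%, 50.8 to 85.1). Except for the noncoding class, these intervals include the 57.1% found over all hypoxia spans. In all, 360 of the 374 matched genes were protein-coding. They made up 160 of 162 spans without a HEK293T overlap and 200 of 212 with one, a difference of 4.43 percentage points (0.47 to 8.50). Classes and gene types follow the name in the list, which can be that of a small RNA inside another gene, as for MIR616 below.

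**Figure D4:**
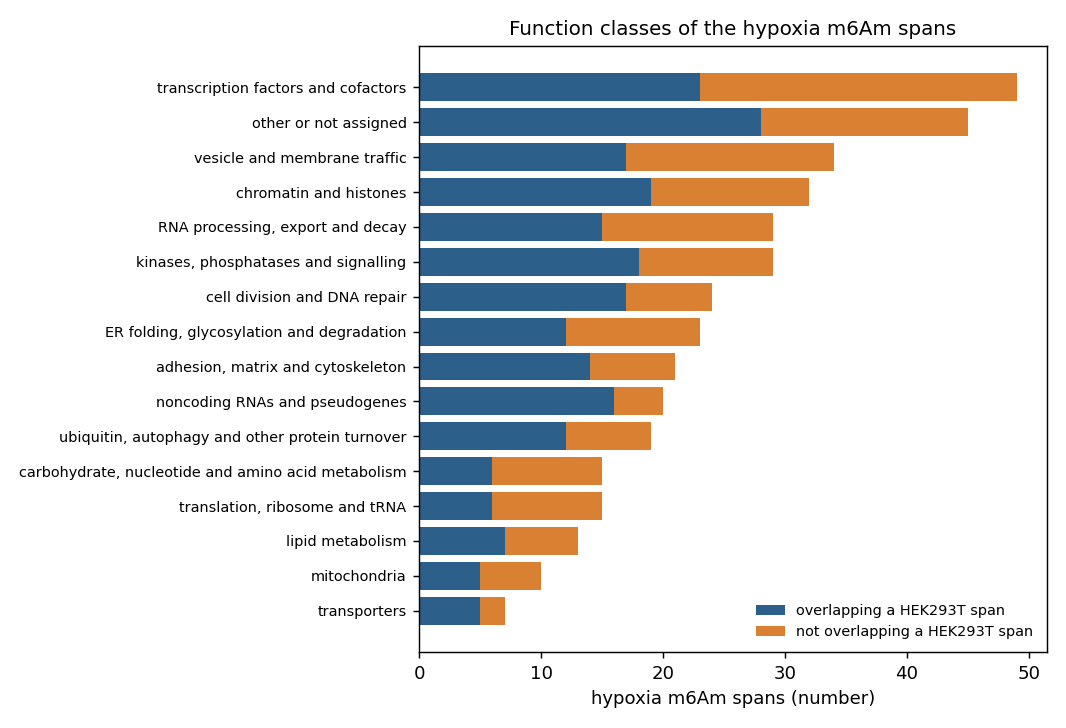
Number of hypoxia m6Am spans per function class, stacked as spans that overlapped a HEK293T span and spans that did not. Transcription factors and cofactors are the longest bar with 49 spans, 26 of them without an overlap, and the noncoding class has 4 of 20 without one.

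Genes of glucose use appeared 4 times among the 28 on the list for glycolysis and glucose uptake. HK2, which traps glucose in the cell, and ENO2, a neuronal enolase, had a HEK293T counterpart. PGAM1, phosphoglycerate mutase, had a span of 297 bp at its start and PGM2, a phosphopentomutase, a span of 3391 bp, both without one. No hypoxia span overlapped SLC2A1, the gene for the glucose transporter GLUT1 at chr1:43391024-43424564, while 1 HEK293T span did. The paper reports a raised m6Am level in GLUT1 mRNA under hypoxia, so absence from the list does not measure m6Am at this gene. The HEK293T list named 6 genes of the glycolysis list, 0.372% of its names, against 1.04% of the hypoxia names. The overlap counts here and for the next list stand beside the 57.1% over all hypoxia spans. Of 50 other known hypoxia and HIF targets the hypoxia list named 7. BHLHE40, SAP30, a subunit of the SIN3 corepressor, and STC2, the secreted glycoprotein stanniocalcin 2, overlapped a HEK293T span. INSIG2, a brake on sterol synthesis, TMEM45A, NAMPT, which makes the NAD precursor, and GPC3, a surface proteoglycan, did not. The HEK293T list also named 7 of the 50, 3 of them the same genes. Put as a share of all names, the 7 are 1.82% of the hypoxia list and 0.435% of the larger HEK293T list. A higher share in the hypoxia list was not particular to these targets: it was found for 19 of the 22 lists counted, among them Notch and Hedgehog (1.56% and 0.124%) and splicing factors (3.90% and 1.49%). The lists were chosen with the hypoxia names known, so these shares are a description.

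The paper reports, from its GO analysis, a link of genes with raised m6Am under hypoxia to regulation of the ER stress response. No set test was run here, and the counts below describe the names alone. Of 46 genes of the unfolded protein and integrated stress response, 4 were named. The ATF3 span at chr1:212781970-212782266 began at the same base as its HEK293T span and ended 3 bp earlier. MANF (1034 bp) and SLC38A2 (301 bp) also overlapped, and AARS, the alanyl-tRNA synthetase gene, did not. The span named MIR616 at chr12:57911164-57914300 held a start of DDIT3, which encodes CHOP, so the name in the list is that of the microRNA inside the gene. A HEK293T span covered the same place from 57911217 to 57914300. The list of ER-associated degradation had 5 of 31 names, among them the ubiquitin ligases RNF103 and RNF185 without an overlap and MAN1B1, a mannosidase that trims misfolded glycoproteins, with one. N-glycan and dolichol synthesis had 5 of 41. DPM3, ALG2, CMAS and MAN1B1 overlapped, and ALG3 lay apart as described. Sterol synthesis had 4 of 27, namely DHCR7 with an overlap and INSIG2, SC5D and OSBPL2 without. The overlap counts of these 4 lists stand beside the 57.1% over all hypoxia spans. The HEK293T list named 8, 7, 9 and 4 genes of the 4 lists. A higher share of names in the hypoxia list was not particular to them, as 19 of the 22 lists counted had one. As shares of all names, the stress response list made up 1.04% of the hypoxia list and 0.497% of the HEK293T list, ER-associated degradation 1.30% and 0.435%, N-glycan synthesis 1.30% and 0.559%, and sterol synthesis 1.04% and 0.248%.

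Chromatin genes included enzymes and scaffolds for histone acetylation and methylation. Histone acetylation and deacetylation had 7 of 42 names. The acetyltransferases KAT5 and KAT7, the deacetylase HDAC8, SAP30 and JADE3 overlapped a HEK293T span, whereas TRRAP, a scaffold of acetyltransferase complexes, and SIN3A did not. Histone methylation and Polycomb had 10 of 65. PHC3, JARID2, KMT2E, KMT5B, KDM2B, YY1 and PCGF2 overlapped, and SCMH1, L3MBTL3 and AEBP2 did not. These overlap counts stand beside the 57.1% over all hypoxia spans. The HEK293T list named 10 genes of the acetylation list and 16 of the methylation list. As shares of all names, the acetylation list made up 1.82% of the hypoxia list and 0.621% of the HEK293T list. The methylation list made up 2.60% and 0.993%. A higher share in the hypoxia list was found for 19 of the 22 lists counted. All 3 histone genes by name, HIST2H2BE, HIST1H2BD and HIST1H4J, had short spans of 119 to 230 bp.

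Growth and patterning pathways held few spans, and their overlap counts, beside 57.1% over all hypoxia spans, set no pathway apart. The Hippo pathway had 3 of 24 names, the coactivator YAP1, its partner TEAD1 and the adaptor SAV1, and all 3 overlapped a HEK293T span. The YAP1 span was 359 bp long and began exactly on an annotated start. Notch and Hedgehog had 6 of 41. HES1 and the coreceptor BOC (420 bp) overlapped, while the receptor PTCH1 (1980 bp), the protease ADAM10 (420 bp), GPC3 and 1 more did not. The HEK293T list named 2 genes of Notch and Hedgehog, both also in the hypoxia list, and 10 of the Hippo pathway. As shares of all names, Notch and Hedgehog made up 1.56% of the hypoxia list and 0.124% of the HEK293T list, and Hippo 0.779% and 0.621%. The actin cytoskeleton had 10 of 56, with CAPZB, RND3, PDLIM7, CALD1, PAK1, PPP1R12A and TMSB4X overlapping and TAGLN2, PDLIM5 and CAPZA2 not. The HEK293T list named 17 genes of the actin list, 1.06% of its names, against 2.60% of the hypoxia names. A higher share in the hypoxia list was found for 19 of the 22 lists counted.

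Families picked out by name were counted the same way, and their overlap counts stand beside the 57.1% over all hypoxia spans. RNA splicing factors had 15 names, 9 of them without an overlap, including the SR proteins SRSF1 and SRSF7, the regulator QKI and the exon junction factor MAGOHB. DEAD and DEAH box helicases had 5, of which DDX41 overlapped. Vesicle traffic had 20 names, 10 with an overlap, among them RAB5A, EXOC8 and VPS16, and 10 without, among them SEC22B, COPB2 and CHMP2A. Ubiquitin enzymes had 15 with 9 overlaps, zinc finger proteins 14 with 6, solute carriers 7 with 4 and J-domain proteins 5 with 3. The respiratory chain and mitochondrial ribosome had 4 names (1.04% of the hypoxia list) against 21 (1.30%) in the HEK293T list, and cytosolic ribosome genes and pseudogenes had 3 (0.779%) against 8 (0.497%). Noncoding and antisense RNAs had 14 names, or 3.64% of the hypoxia list, against 108 or 6.70% of the HEK293T list, and 13 of the 14 overlapped. ZFAS1 was the exception. The 13 include MIR616, whose span held a start of DDIT3, so this count follows the names in the list. MALAT1, an abundant nuclear RNA, had a hypoxia span of 360 bp whose 3′ end lay 450 bp upstream of that in HEK293T cells.

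The promoter was searched for the hypoxia response element core, ACGTG or GCGTG on either strand, from 250 bases before to 50 bases after the start, with overlapping matches counted once. The E-box CACGTG contains this core. Windows of 29 bases from GRCh37 are shown for 5 genes of glucose use and NAD supply and for INSIG2, with the core in capitals as it reads on the transcribed strand. CACGT and CACGC are the core on the other strand.
HK2, chr2:75061187-75061215: cgcagccaatggGCGTGcgcacgtcactg
ENO2, chr12:7023614-7023642: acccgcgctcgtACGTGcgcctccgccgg
PGAM1, chr10:99185766-99185794: ctccgcgtgcttACGTGcgctccgtgact
PGM2, chr4:37828190-37828218: aacggcaaggagGCGTGcccgccgcggcg
NAMPT, chr7:105925664-105925692: gagcgcgtgcatCACGTcctcctccccgc
INSIG2, chr2:118845940-118845968: ggctcgcaggtcCACGTcttattgacagc

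HK2 and PGAM1 carried a second core within a few bases of the one shown, and NAMPT, read on the minus strand, likewise. A core was present at the nearest start in 233 of 374 hypoxia spans (62.3%, 57.3 to 67.1). The HEK293T spans without a hypoxia span had 873 of 1375 (63.5%), a difference of -1.19 percentage points (-6.80 to 4.23). That interval allows an excess among the hypoxia spans of up to 4.23 points. Canonical starts of all protein-coding genes, which are unlike starts, had 56.6%. At their own canonical starts the hypoxia spans had 64.4% and the HEK293T spans without one 64.9%. These lay above all genes by 7.84 points (2.80 to 12.6) and 8.28 points (5.61 to 10.9). With ACGTG alone the shares were 29.7% and 26.8% at nearest starts, and 23.3% at canonical starts of all genes. Spans without a HEK293T overlap had the core in 65.4% and those with one in 59.9%, and the interval of this difference, -4.39 to 15.1 points, includes 0. At least 3 cores stood in 46 promoters (12.3%), 23 of spans with and 23 of spans without an overlap. HEK293T spans without a hypoxia span had 11.3% and canonical starts of all genes 9.84%. The intervals of both differences, -2.49 to 4.99 and -0.525 to 6.19 points, include 0. UBE2R2, a ubiquitin-conjugating enzyme, IGF1R and ATG3, an autophagy conjugating enzyme, had 5 each, and the highest count was 6. Of the hypoxia and HIF targets, STC2 had 4, BHLHE40 and NAMPT 3 each, and SAP30 and TMEM45A had no match in this window.

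Other short promoter words were counted in the same windows. The GC box GGGCGG stood in 269 of 374 promoters (71.9%), against 69.8% for HEK293T spans without a hypoxia span and 61.5% for all genes. It was found in 77.2% of spans without a HEK293T overlap and 67.9% of those with one, a difference of 9.24 points (0.033 to 18.0). The CCAAT box, CCAAT, stood in 39.8%, the ETS core CCGGAAG in 17.6%, the YY1 core AAGATGG in 9.63% and the CRE TGACGTCA in 3.74%, each on either strand. All genes had 36.0%, 14.1%, 6.43% and 2.68%. TATAAA on the transcribed strand lay 20 to 40 bases before the start in 7 promoters (1.87%) against 3.91% of all genes, and 3 of the 7 were the histone genes named above. These shares set nearest starts of the hypoxia spans beside canonical starts of all genes. At canonical starts for both, the TATAAA share of the hypoxia spans was 2.43% and the interval of the difference, -2.66 to 0.651 points, includes 0. A divergent protein-coding start within 1000 bp was found at 78 of 374 starts (20.9%), against 18.9% for HEK293T spans without a hypoxia span and 11.9% for all genes. RAB2B and TOX4, a divergent pair, were both in the hypoxia list. Promoter GC content had a median of 64.0% in the hypoxia spans and 63.7% in all genes. The ratio of observed to expected CpG had a median of 0.862 (0.841 to 0.880) in the hypoxia spans, 0.825 (0.814 to 0.836) in HEK293T spans without a hypoxia span and 0.777 in all genes, and the intervals of the former pair did not overlap. In 33 features given as shares and compared between hypoxia spans and HEK293T spans without one, no interval excluded 0. Between hypoxia spans without and with a HEK293T overlap, 3 of 33 did, namely the GC box, the share of protein-coding genes and the presence of another gene's start. The span held a start of another protein-coding gene in 6.67% of spans without an overlap and 15.9% of those with one, a difference of -9.24 points (-15.4 to -2.78). These intervals were not adjusted for the number of features, some of which share bases.

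**Figure D5:**
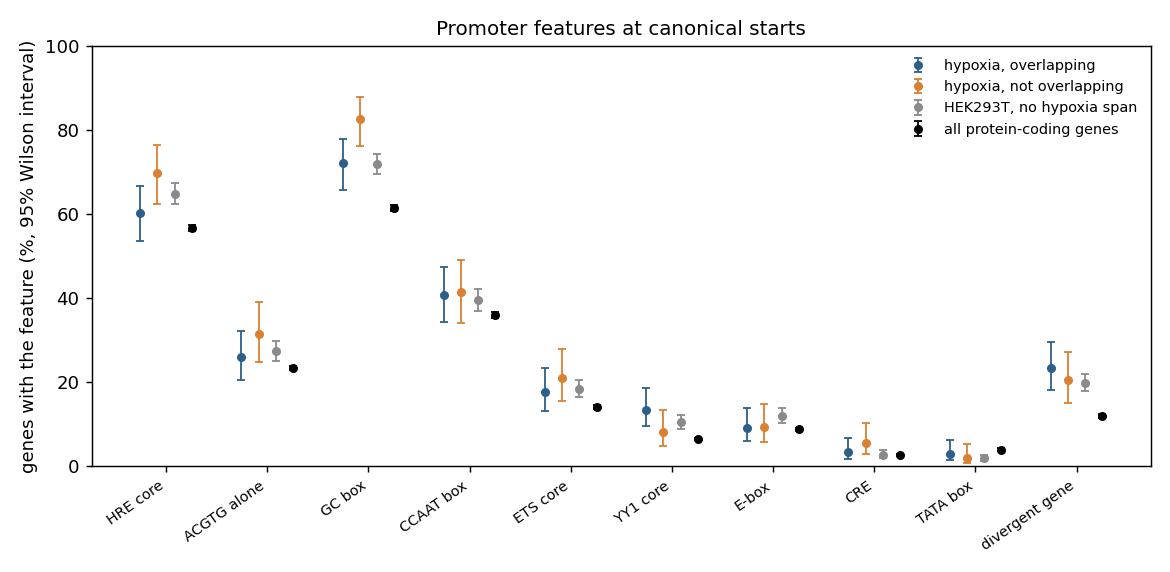
Percent of genes with each promoter feature at the canonical start (points, with 95% Wilson intervals as bars), for hypoxia spans with a HEK293T overlap (n = 209), hypoxia spans without one (n = 162), HEK293T spans without a hypoxia span (n = 1360) and all 19819 protein-coding genes. The GC box stands at 82.7% without and 72.2% with an overlap, and the hypoxia response element (HRE) core at 69.8% and 60.3%.

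A set of 5 spans stood on more than 1 line of the list, namely TROVE2, TMPO, ZIC2, MFSD11 and SLC25A5. None of the 5 overlapped a HEK293T span, beside 165 of all 385 hypoxia spans without an overlap. TMPO encodes a lamina protein, ZIC2 a developmental transcription factor and SLC25A5 an ADP/ATP carrier of mitochondria. The TMPO span, at chr12:98909046-98910004, was 959 bp long and its 5′ end lay at -311 bp from the nearest start.

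The heat shock list was set against the same untreated libraries, so spans common to both stresses and spans set by those libraries cannot be told apart, and a count of shared spans is not read as a result. Side by side, KHSRP, a splicing and decay factor, had the span chr19:6424464-6424822 in the hypoxia, heat shock and HEK293T lists, and ROBO1 likewise had 1 span in all 3. The histone gene HIST2H2BE, on the minus strand, had its 3′ end at 149858084 in both stress lists and at 149858113 in the HEK293T list. STC2, also on the minus strand, had its 5′ end at 172756506 in the hypoxia and HEK293T lists and at 172755551 in heat shock. TROVE2, MFSD11 and SLC25A5 had identical spans in both stress lists and none in the HEK293T list.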

How the data were processed

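Human HEK293T libraries of m6Am-seq were processed by the authors: adapters were removed with Trim Galore 0.6.6, reads were mapped to hg19 with HISAT2, peaks were called with exomePeak and MACS2 and kept where an m7G-IP peak overlapped with lower enrichment, and m6Am peaks were those that fell after FTO treatment, by exomePeak and DESeq2. The deposited lists give positions and gene names; how replicates were combined is not given in the sources used here. The last column of the stress lists holds the authors' own comparison with untreated cells and was not used. No counts per library were used, so depth is unknown. The files' positions count from 1: 104 hypoxia spans began exactly on a Gencode start, on both strands, and 7 and 2 began 1 base before or after.

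Names were matched to Gencode release 44 on GRCh37 by symbol (360 spans) or older symbol (14), and 11 stayed unmatched, including 1 turned into a date. Overlaps, starts and promoter words were computed in Python 3.11.15 with SciPy 1.17.1 and pyfaidx 0.9.0.4, and the overlap and word search were tested on simulated spans. The members, gene lists and function classes were chosen with earlier results of these data known. Genes were named by rule: the first 12 members of each list in genome order, spans on more than 1 line or in several lists, the 3 shortest and longest spans, and promoters with at least 3 hypoxia response element cores. TOX4, SLC17A5, CHMP2A, VPS16 and ZFAS1, outside these, were chosen after their values were seen, and a few named items are not reported here.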

Additional observations from a re-analysis of the deposited data

How the results depend on the processing

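No paired analysis was possible because the lists hold 1 row per peak and no column per replicate, and for the same reason no replicate could be left out. The share of hypoxia spans overlapping a HEK293T span was 57.1%; it was 46.2% with at least 50% of both spans shared and 11.2% with identical ends, and between 53.7% and 57.9% under the other 7 alternatives. A start inside the span was found in 92.0%, and a start within 100 bp of the 5′ end in 79.4%. A first base A stood at 42.8% of nearest starts, a BCA within 10 bases at 65.8%, and A at 58.8% of canonical starts, an alternative added after seeing the data. The hypoxia response element core stood in 62.3% of promoters, in 90.4% with 500 bases on each side and in 29.7% with ACGTG alone. TATAAA stood in 1.87% of promoters and in 6.15% when sought anywhere in the 250 bases upstream. The share of spans meeting a heat shock span, which rests on shared untreated libraries and is not read as a result, was 4.68% and 2.60% with identical ends. The median length of 1290 bp became 320 bp when exonic bases alone were counted. Most of these moves follow from a wider or narrower definition. For the canonical start, which is a different start, the cause was not tested. The alternatives not given here moved their value by less than its interval. Depth per library was unknown and limits what the lists can show.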

Other observations

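Related genes stood side by side in the hypoxia list, a pattern chosen after the names were seen and given as values with no test. Of the NFAT family of calcium- and osmotic-stress-responsive transcription factors, NFAT5 had a span of 180 bp that overlapped a HEK293T span, whereas NFATC3 (210 bp) and NFATC4 (2424 bp) had none. The regulatory subunits PPP4R3A (420 bp) and PPP4R3B (331 bp) of protein phosphatase 4 both lay outside the HEK293T list. Over all hypoxia spans, 165 of 385 had no HEK293T overlap, and no difference from that share was tested.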
